A study of Mus musculus with 8 samples.

Results

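Genes of the blood vessel wall were followed in brown adipose tissue, which burns fat to make heat, from 8 male C57BL/6J mice. The list held 31 genes by name, 19 of endothelial cells (Pecam1 to Notch4) and 12 of mural cells (Acta2 to Myl9), of 22180 genes that the arrays measured with a probe set assigned to 1 gene symbol. They are listed for their known roles in these cells, and no threshold on a measured value selects them. The list was, however, chosen with earlier results of these data known. Where a gene had several such probe sets, the one with the highest mean over the 8 arrays stood for it. The tissue came from 3 wild-type (WT) mice and 5 mice labelled Abhd15 KO, whose labels name a knockout of Abhd15, a gene for a hydrolase-like protein of fat cells. By the study's design text all were 14 weeks old, and all ate chow, were fasted overnight and were fed again for 1 h before the tissue was frozen, and 200 ng of total RNA from each mouse went on its own array. The sources used here do not give how the gene was deleted, nor litters or harvest days. Abhd15 showed no fall with the KO label (log2 values of 5.87, 5.94 and 6.23 in WT and 6.32, 6.14, 5.68, 6.34 and 6.13 in the others), and the deleted part is not given, so each direction below rests on the labels alone. Those 5 arrays are called the arrays labelled Abhd15 KO throughout, and replicate numbers are those of the labels.

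Blood vessels are lined by endothelial cells, which are wrapped by mural cells: pericytes on capillaries and smooth muscle cells on arteries and veins. Endothelial cells hold together through cadherin and claudin junctions and respond to vascular endothelial growth factor (VEGF) and angiopoietins through receptor tyrosine kinases, while mural cells are recruited by platelet-derived growth factor and contract through smooth muscle actin and myosin. Brown fat is densely supplied with capillaries, which bring fatty acids, glucose and oxygen and carry heat away.

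Short motifs were searched in promoter stretches of some of these genes. RefSeq's promoter table (GRCm38.p6) held 20 of the 31 genes, 11 endothelial and 9 mural, in 24 windows, and the 250 bases before each annotated start were searched on both strands. The letters AGGAAG contain GGAA, the core that ETS factors such as ERG bind. They stood in 8 of 11 endothelial genes (Flt1, Tie1, Eng, Emcn, Egfl7, Robo4, Erg and Notch4; 9 of 15 windows) and 0 of 9 mural genes, against 29.5% of all 32851 windows. AGGAAG was chosen for printing after its counts were seen. The other motifs searched were GGAAG, which lies within AGGAAG (9 of 11 and 2 of 9 genes, against 64.1% of all windows), CCGGAAGT (0 of 11 and 0 of 9, against 2.88%), TGGGAA (4 of 11 and 2 of 9, against 21.6%) and the CArG box, the serum response factor motif known from smooth muscle genes (0 of 11 and 1 of 9, against 1.47%). A match describes letters and is no evidence of binding. Below, Flt1 and Tie1 are shown for AGGAAG, Myl9 for its CArG box, and the adjoining channel genes Abcc9 and Kcnj8 because they are compared with each other further on; capitals mark AGGAAG (or its complement CTTCCT) and the CArG box, and the last pair holds neither. The stretches lie at chr5:147726012-147726261 (minus strand) for Flt1, chr4:118489850-118490099 (minus) for Tie1, chr2:156775214-156775463 (plus) for Myl9, chr6:142702275-142702524 (minus) for Abcc9 and chr6:142571615-142571864 (minus) for Kcnj8.
Flt1: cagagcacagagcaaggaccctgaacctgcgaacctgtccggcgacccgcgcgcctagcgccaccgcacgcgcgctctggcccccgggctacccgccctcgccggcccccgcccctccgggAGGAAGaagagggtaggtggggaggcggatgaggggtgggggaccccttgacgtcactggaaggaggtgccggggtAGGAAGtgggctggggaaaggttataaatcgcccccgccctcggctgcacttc
Tie1: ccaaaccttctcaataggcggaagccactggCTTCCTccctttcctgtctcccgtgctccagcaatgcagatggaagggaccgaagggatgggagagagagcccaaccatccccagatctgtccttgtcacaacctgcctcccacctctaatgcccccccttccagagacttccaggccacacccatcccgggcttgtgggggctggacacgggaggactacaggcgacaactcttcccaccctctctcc
Myl9: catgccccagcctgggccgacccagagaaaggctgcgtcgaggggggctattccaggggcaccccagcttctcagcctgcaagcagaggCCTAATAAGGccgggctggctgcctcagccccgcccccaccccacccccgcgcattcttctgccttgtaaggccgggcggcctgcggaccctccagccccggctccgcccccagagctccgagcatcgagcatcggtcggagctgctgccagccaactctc
Abcc9: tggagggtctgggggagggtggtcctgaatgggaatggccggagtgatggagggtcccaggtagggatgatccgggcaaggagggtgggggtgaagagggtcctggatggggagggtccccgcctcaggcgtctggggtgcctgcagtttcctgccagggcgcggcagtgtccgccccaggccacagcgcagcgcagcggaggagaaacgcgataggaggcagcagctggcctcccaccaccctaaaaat
Kcnj8: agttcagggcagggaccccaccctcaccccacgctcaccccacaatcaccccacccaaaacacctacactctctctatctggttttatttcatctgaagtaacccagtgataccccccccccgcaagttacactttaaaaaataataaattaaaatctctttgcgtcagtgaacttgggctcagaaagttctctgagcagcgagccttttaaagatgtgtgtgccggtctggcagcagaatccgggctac

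All 31 genes read above the dim limit of 2.88 log2 in 8 of 8 arrays. That limit is the 95th percentile of 1399 probe sets of smell receptor genes (olfactory or vomeronasal), assumed silent in brown fat. The arrays were alike in overall signal (medians 3.00 to 3.04, correlations between arrays 0.964 to 0.975). Ucp1, the uncoupling protein that defines brown fat, read 12.51 to 12.89. WT replicate 2 and Abhd15 KO replicate 1 stood apart from the rest in Angptl8, a feeding-induced regulator of lipoprotein lipase, with 7.95 and 7.90 against 10.42 to 10.81. The skeletal muscle genes differed widely between mice, and Acta1, which encodes skeletal muscle actin, spanned 6.71 to 10.49. These points are given beside the vascular results they touch.

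No endothelial or mural gene passed the test between the groups. With limma, 0 of 31 passed a Benjamini-Hochberg adjusted p of 0.05, where 0 of 13223 genes tested (0%) did, and 0 of 31 had an unadjusted p below 0.05, where 528 of all genes (3.99%) did. The groups overlapped in each of the 31 genes; over all genes 2.77% had groups that did not overlap. Of the endothelial genes 17 of 19 had a mean above WT in the arrays labelled Abhd15 KO, with differences of −0.15 to 0.29 log2 and a median of 0.08. Of the mural genes 6 of 12 did, with differences of −0.43 to 0.28 and a median of 0.03. Over all genes tested 51.7% had a difference above 0 and the median was 0.01. The adjusted p was 0.9997 by limma for each of the 31 genes. In whole-tissue RNA, fewer cells of a type and less RNA per cell cannot be told apart.

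**Figure D1:**
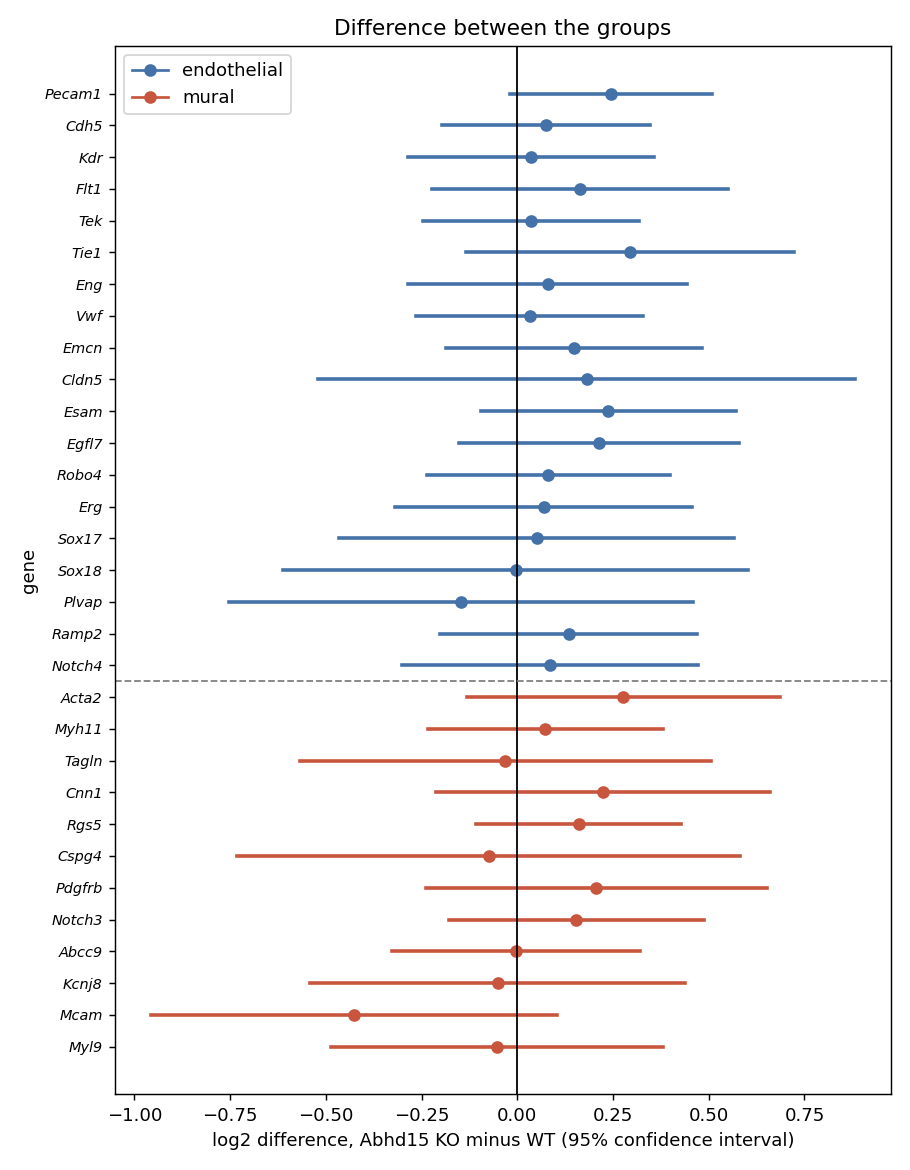
Log2 difference, arrays labelled Abhd15 KO minus WT, for each of the 31 genes, with its 95% confidence interval from limma; endothelial genes stand above the dashed line and mural genes below it. All 31 intervals include 0, the endothelial estimates lie between −0.15 and 0.29, and the lowest estimate is that of Mcam at −0.43.

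The count of higher endothelial genes rested partly on single mice of either label. Without WT replicate 2 it was 11 of 19 (median 0.05), and without that array and Abhd15 KO replicate 1 together it was also 11 of 19 (median 0.02). Without Abhd15 KO replicate 2 alone it was 13 of 19 (median 0.04). The mean deviation of the 19 endothelial genes from their own averages was −0.00, −0.17 and −0.03 in the WT arrays, replicates 1 to 3, and 0.18, 0.24, −0.05, −0.20 and 0.02 in replicates 1 to 5 labelled Abhd15 KO. The highest and the lowest array were thus both labelled Abhd15 KO. Abhd15 KO replicate 2 held the highest value of 11 endothelial genes and the lowest of 0, and Abhd15 KO replicate 4 the lowest of 9 and the highest of 0. WT replicate 2 was lowest in 5 endothelial genes (Pecam1, Cdh5, Kdr, Esam and Robo4) and highest in 2 (Vwf and Sox17). For the 12 mural genes the mean deviation was 0.06, −0.14 and 0.01 in WT and 0.09, 0.15, −0.12, −0.07 and 0.01 in the other group. WT replicate 2 was lowest and Abhd15 KO replicate 2 highest in that list, while the arrays with the lowest and highest single genes were spread over the mice.

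**Figure D2:**
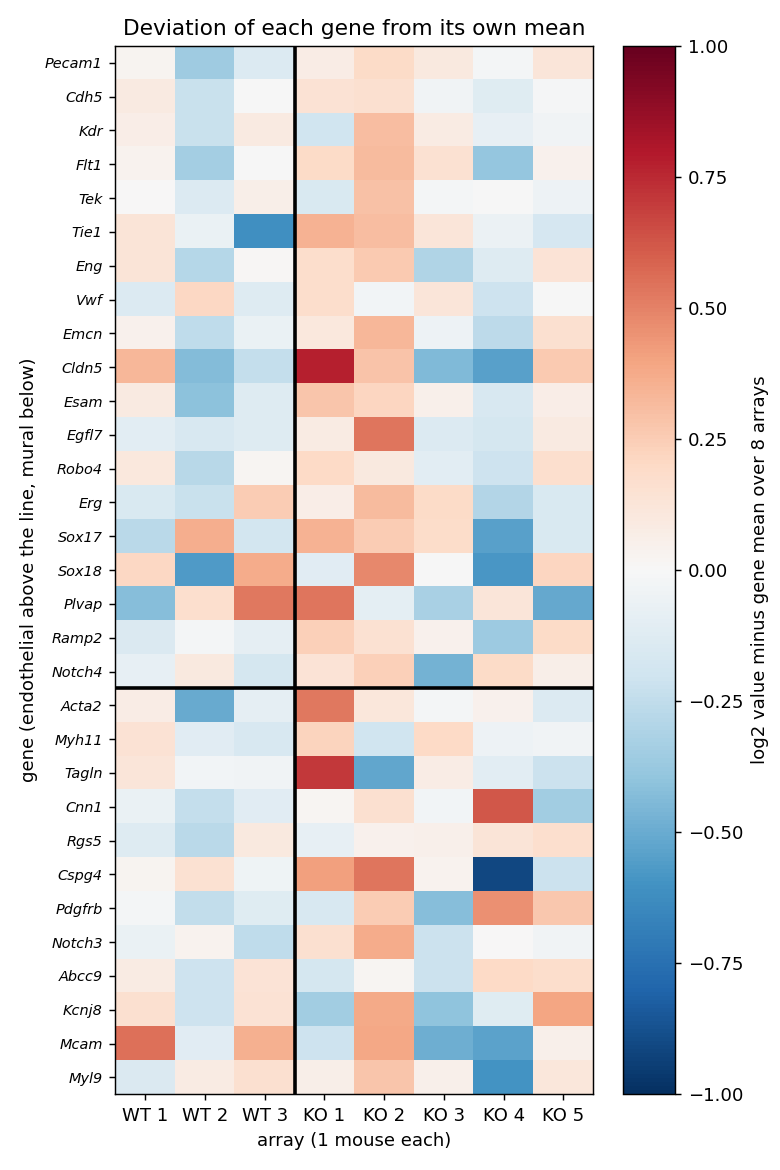
Log2 value minus the gene's own mean over the 8 arrays, for 19 endothelial genes (above the horizontal line) and 12 mural genes (below it), in 3 WT arrays and 5 arrays labelled Abhd15 KO (KO). Abhd15 KO replicate 2 is above the gene's mean in 17 of 19 endothelial genes and replicate 4 is below it in 17 of 19, while replicate 2 is above it in 10 and replicate 4 in 6 of 12 mural genes.

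Of the junction and adhesion genes, Pecam1 and Esam each differed by 0.24, Cldn5 by 0.18 and Cdh5 by 0.07. Pecam1, the adhesion molecule CD31 of endothelial contacts, read 8.10, 7.72 and 7.94 in the WT arrays, replicates 1 to 3, and 8.14, 8.27, 8.17, 8.05 and 8.19 in replicates 1 to 5 labelled Abhd15 KO. All of these but replicate 4 lay above every WT array, and the difference was 0.24 (95% confidence interval −0.02 to 0.51, exact two-sided permutation p = 0.0357, where 56 splits allow no p below 0.0179). Esam, another adhesion molecule of endothelial tight junctions, read 5.81, 5.31 and 5.59 in WT and 6.00, 5.94, 5.77, 5.56 and 5.79 in the others. Its difference was 0.24 (−0.10 to 0.57, exact permutation p = 0.179), with WT replicate 2 the lowest array as for Pecam1. Cdh5, the cadherin of endothelial adherens junctions, read 9.74, 9.42 and 9.65 in WT and 9.79, 9.81, 9.62, 9.53 and 9.63 in the others, a difference of 0.07 (−0.20 to 0.35). It varied little in either group, with a residual SD of 0.14. Cldn5, a claudin of tight junctions, varied most of the 19 genes, with a residual SD of 0.51. It read 5.86, 5.09 and 5.29 in WT and 6.31, 5.81, 5.08, 4.98 and 5.79 in the others, so mice of 1 label differed by up to 1.33 log2 while the group means differed by 0.18 (−0.52 to 0.88).

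Of the receptor tyrosine kinases of the VEGF and angiopoietin systems, Kdr and Tek each differed by 0.04, Flt1 by 0.16 and Tie1 by 0.29. Kdr, the main signalling VEGF receptor of endothelium, read 8.11, 7.81 and 8.13 in WT and 7.84, 8.35, 8.12, 7.95 and 8.001 in the others. The 2 arrays lowest in Angptl8 were also the 2 lowest in Kdr, and the difference between the groups was 0.04 (−0.28 to 0.36). Flt1, a VEGF receptor that also acts as a decoy, read 7.34, 6.96 and 7.29 in WT and 7.49, 7.62, 7.46, 6.92 and 7.34 in the others, a difference of 0.16 (−0.22 to 0.55). WT replicate 2 and Abhd15 KO replicate 4 were low in Flt1 and the other 6 arrays lay within 7.29 to 7.62. Tek, the angiopoietin receptor TIE2, read 7.34, 7.20 and 7.39 in WT and 7.18, 7.63, 7.31, 7.33 and 7.28 in the others (0.04, −0.25 to 0.32), where Abhd15 KO replicate 2 alone stood above 7.39. Tie1, its partner receptor, had the largest difference of the 19 genes and a wide interval. It read 6.18, 5.98 and 5.44 in WT and 6.39, 6.36, 6.17, 6.00 and 5.88 in the others (0.29, −0.13 to 0.72, exact permutation p = 0.232), and WT replicate 3 was the low array.

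The remaining surface receptors gave differences of 0.08 to 0.13. Eng, a co-receptor for ligands of the TGF-beta and BMP family, read 7.90, 7.49 and 7.78 in WT and 7.95, 8.03, 7.47, 7.64 and 7.91 in the others, with the lowest array of each group at nearly the same level. Robo4, a guidance receptor that stabilises vessels, read 5.95, 5.57 and 5.87 against 6.05, 5.94, 5.74, 5.64 and 6.01. Ramp2, the partner of the adrenomedullin receptor, read 5.02, 5.15 and 5.08 against 5.40, 5.31, 5.21, 4.80 and 5.35. Its WT arrays lay close together (SD 0.06), and the other group spread on both sides of them. Notch4, a Notch receptor of endothelium, read 5.24, 5.43 and 5.15 against 5.47, 5.57, 4.86, 5.52 and 5.38, so that Abhd15 KO replicate 3 lay below the other 7 arrays. The intervals were −0.28 to 0.44 for Eng, −0.24 to 0.40 for Robo4, −0.20 to 0.47 for Ramp2 and −0.30 to 0.47 for Notch4.

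Genes of secreted and specialised endothelial products showed no common pattern over the arrays. Vwf, the clotting factor stored in endothelial granules, read 4.79, 5.13 and 4.80 in WT and 5.11, 4.89, 5.04, 4.72 and 4.92 in the others, a difference of 0.03 (−0.26 to 0.33). Here the arrays lowest in Angptl8 were the 2 highest, the reverse of Kdr. Emcn, a sialomucin of capillaries and veins, read 7.13, 6.84 and 7.02 against 7.20, 7.42, 7.04, 6.83 and 7.25 (0.15, −0.19 to 0.48). Egfl7, a secreted protein of endothelial cells, read 5.86, 5.80 and 5.83 against 6.05, 6.50, 5.83, 5.79 and 6.05 (0.21, −0.15 to 0.58, exact permutation p = 0.357). The 3 WT arrays were nearly equal in Egfl7 (SD 0.03), and 3 of 5 arrays labelled Abhd15 KO stood above them. Plvap, which forms the diaphragms of endothelial fenestrae and caveolae, was 1 of the 2 endothelial genes with a difference below 0. It read 4.02, 4.61 and 4.97 against 4.97, 4.34, 4.12, 4.56 and 3.93 (−0.15, −0.75 to 0.46), so the spread inside each group was wider than the difference.

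The transcription factors of the list were Erg, an ETS factor that maintains endothelial identity, and the SOX factors Sox17, linked to arteries, and Sox18, linked to vessel and lymphatic growth. Erg read 5.72, 5.65 and 6.12 in WT and 5.94, 6.19, 6.06, 5.58 and 5.72 in the others (0.07, −0.32 to 0.46). Sox17 read 4.66, 5.29 and 4.75 against 5.29, 5.19, 5.12, 4.39 and 4.78 (0.05, −0.46 to 0.57), and Sox18 read 5.57, 4.79 and 5.74 against 5.25, 5.84, 5.36, 4.78 and 5.58 (−0.00, −0.61 to 0.60). Abhd15 KO replicate 4 was the lowest array in all 3 of these factors. WT replicate 2 was high in Sox17 and low in Sox18, and over the 8 arrays these SOX genes had a Pearson r of 0.03 (exact permutation p = 0.933).

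**Figure D3:**
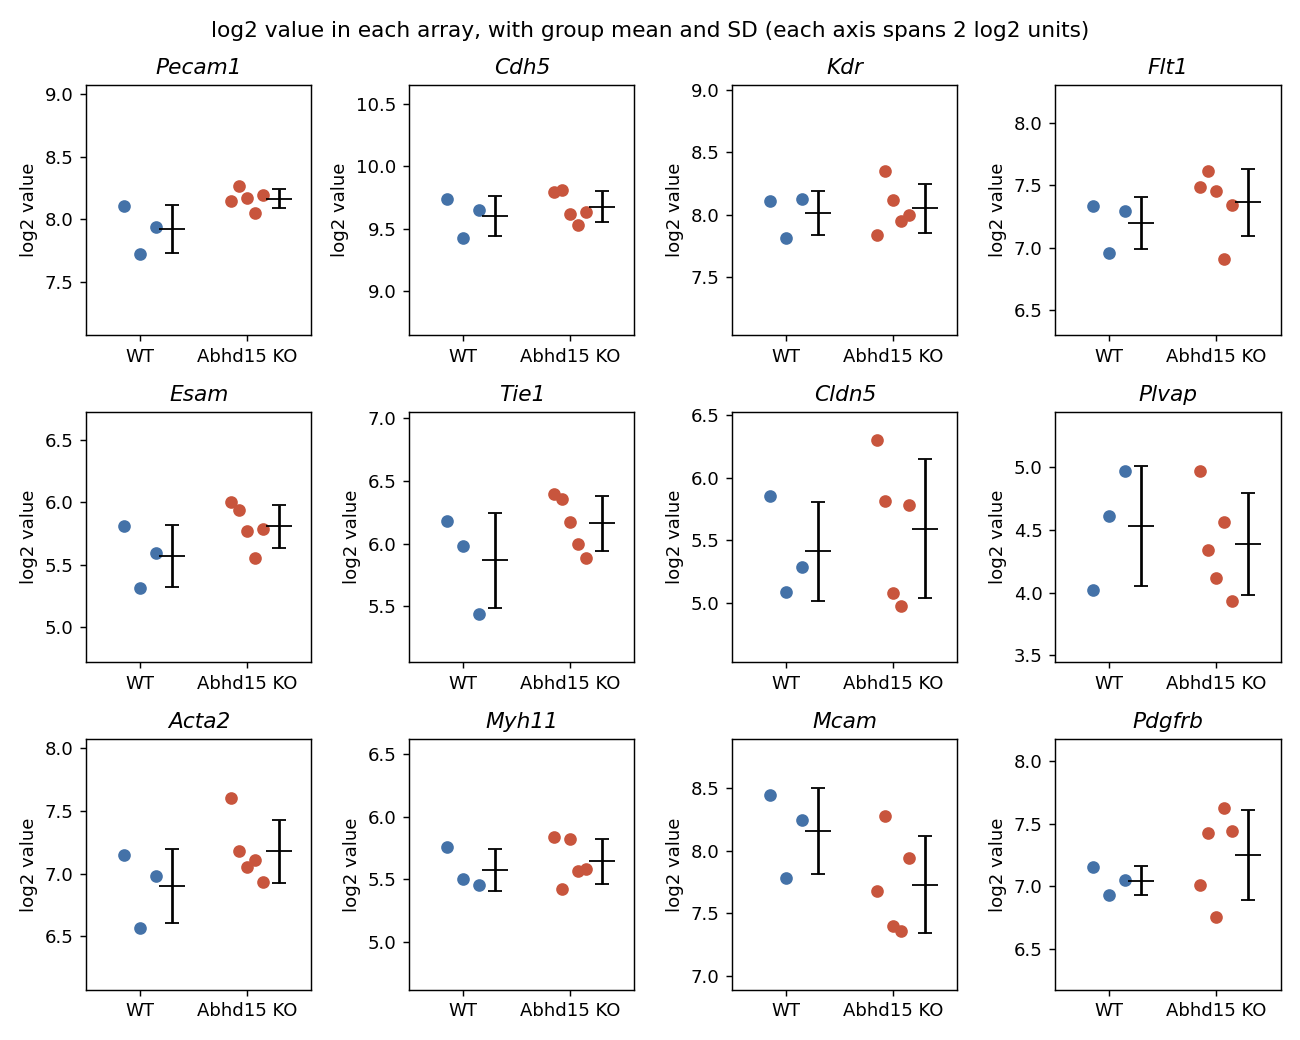
Log2 value of 12 vascular genes in each array, with 3 WT arrays in blue and 5 arrays labelled Abhd15 KO in red; black marks give the group mean and SD, and each axis spans 2 log2 units around the gene's mean. The groups overlap in every panel, Cldn5 and Plvap spread most among the endothelial panels, and the mean of Mcam is lower in the arrays labelled Abhd15 KO by 0.43 without passing the test (adjusted p = 0.9997 by limma).

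The mural list holds 5 contractile genes of smooth muscle, with differences of −0.05 to 0.28. Acta2, smooth muscle alpha-actin, read 7.14, 6.57 and 6.98 in WT and 7.60, 7.18, 7.05, 7.11 and 6.93 in the others, a difference of 0.28 (−0.13 to 0.69, exact permutation p = 0.268). WT replicate 2 was the lowest array and Abhd15 KO replicate 1 the highest, and without WT replicate 2 and Abhd15 KO replicate 1 together the difference was 0.01. Actins are nearly identical in sequence, so cross-hybridization makes Acta2 uncertain. Acta1 of skeletal muscle had an r of −0.05 with Acta2 over the 8 arrays (exact permutation p = 0.913), and Actg2, the other smooth muscle actin, was above the dim limit in 2 of 8 arrays. Myh11, the smooth muscle myosin heavy chain, read 5.76, 5.50 and 5.46 in WT and 5.84, 5.42, 5.82, 5.56 and 5.58 in the others (0.07, −0.23 to 0.38).

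Tagln, an actin-binding protein of smooth muscle, read 4.95, 4.80 and 4.79 in WT and 5.53, 4.30, 4.90, 4.72 and 4.61 in the others. Both extremes were in the arrays labelled Abhd15 KO, with replicate 1 highest and replicate 2 lowest, and the difference was −0.03 (−0.57 to 0.50). Cnn1, the calponin of smooth muscle, read 4.08, 3.90 and 4.03 against 4.17, 4.31, 4.11, 4.76 and 3.79 (0.22, −0.21 to 0.66, exact permutation p = 0.393). Abhd15 KO replicate 4 stood highest in Cnn1 and replicate 5 lowest. Myl9, a regulatory light chain of smooth muscle myosin whose promoter with its CArG box is printed above, read 6.03, 6.26 and 6.34 against 6.23, 6.45, 6.23, 5.57 and 6.28 (−0.05, −0.49 to 0.38). Abhd15 KO replicate 4 lay below all other arrays in Myl9, although it was the highest in Cnn1.

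Surface receptors of mural cells included the member with the largest difference. Mcam (CD146), an adhesion molecule of pericytes and smooth muscle that endothelial cells also carry, read 8.44, 7.78 and 8.25 in WT and 7.68, 8.28, 7.40, 7.35 and 7.94 in the others. WT replicates 1 and 3 and Abhd15 KO replicate 2 were high, the group means were 8.16 ± 0.34 (SD, n = 3) and 7.73 ± 0.39 (SD, n = 5), and the difference was −0.43 (−0.96 to 0.10, exact permutation p = 0.179). Over the alternatives computed for it, the Mcam difference ranged from −0.62 to −0.28. By limma the lowest unadjusted p among them was 0.0244 and the lowest adjusted p was 0.957. Pdgfrb, the receptor through which pericytes are recruited, read 7.16, 6.93 and 7.05 in WT and 7.01, 7.42, 6.75, 7.63 and 7.44 in the others (0.21, −0.24 to 0.65). The WT arrays lay close together (SD 0.11), with 3 arrays of the other group above them and 1 below.

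Notch3, the Notch receptor of smooth muscle and pericytes, read 5.10, 5.21 and 4.92 in WT and 5.33, 5.54, 4.95, 5.17 and 5.13 in the others (0.15, −0.18 to 0.49). Cspg4, the proteoglycan NG2 of pericytes, read 5.47, 5.60 and 5.41 against 5.86, 5.98, 5.48, 4.54 and 5.23 (−0.08, −0.73 to 0.58). It had the widest range of the 31 genes, 1.44 log2, and Abhd15 KO replicate 4 set its lower end. That array was the highest in Pdgfrb, so these pericyte receptors parted in the same mouse.

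Signalling genes of pericytes showed small differences. Rgs5, a regulator of G protein signalling typical of pericytes, read 10.26, 10.11 and 10.48 in WT and 10.30, 10.43, 10.43, 10.51 and 10.55 in the others, a difference of 0.16 (−0.11 to 0.43, exact permutation p = 0.196). Its residual SD of 0.13 was the smallest of the mural genes. Rgs5 was also the only member with another probe set of its own, which gave a difference of 0.32 (adjusted p = 0.929 by limma among second probe sets). Abcc9 and Kcnj8 encode the subunits of the ATP-sensitive potassium channel of mural cells and adjoin each other on chromosome 6. Abcc9 read 8.21, 7.92 and 8.27 in WT and 7.96, 8.15, 7.92, 8.33 and 8.31 in the others (−0.00, −0.33 to 0.32). Kcnj8 read 6.42, 6.05 and 6.40 against 5.91, 6.64, 5.85, 6.14 and 6.65 (−0.05, −0.54 to 0.44). In both channel genes WT replicate 2 and Abhd15 KO replicates 1 and 3 were the 3 lowest arrays.

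Covariation between named partners was examined in 14 pairs over the 8 arrays, and no pair passed after Benjamini-Hochberg adjustment over the 14. Pecam1 and Esam had a Pearson r of 0.89 (exact permutation p = 0.0036, adjusted p = 0.0503) and a Spearman rho of 0.71 (exact p = 0.0576). Without WT replicates 2 and 3, the arrays farthest from the median of Pecam1, r was 0.64. Cdh5 and Acta2, an endothelial and a mural gene, had an r of 0.80 (exact permutation p = 0.0168, adjusted p = 0.117), a rho of 0.76 (exact p = 0.0368) and an r of 0.69 without the 2 farthest arrays. Pecam1 and Cdh5 had an r of 0.76 (exact permutation p = 0.0265, adjusted p = 0.124), a rho of 0.57 (exact p = 0.151) and an r of 0.56 without the farthest. Abcc9 and Kcnj8 had an r of 0.72 (exact permutation p = 0.0637, adjusted p = 0.218), a rho of 0.64 (exact p = 0.0962) and an r of 0.51 without WT replicate 2 and Abhd15 KO replicate 3. With each group centred on its own mean these 4 pairs had r values of 0.86, 0.79, 0.84 and 0.72 in the same order. The pair of junction genes Pecam1 and Esam thus had the highest r of the 14.

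Other pairs were weaker. Kdr and Flt1 had an r of 0.60 (exact permutation p = 0.121), a rho of 0.43 (exact p = 0.299) and an r of 0.06 without WT replicate 2 and Abhd15 KO replicate 2. Leaving out the farthest arrays narrows the range of the first gene, so a lower r does not show that a relation rests on them. For Acta2 with Tagln an r of 0.52 (exact permutation p = 0.18) became −0.22 without WT replicate 2 and Abhd15 KO replicate 1. Without the same arrays the r of Acta2 with Myh11 went from 0.53 (exact permutation p = 0.188) to 0.02. Their rho values were 0.26 and 0.29 (exact p = 0.536 and 0.501). Pdgfrb and Rgs5 had an r of 0.53 (exact permutation p = 0.18), a rho of 0.57 (exact p = 0.151) and an r of 0.71 without the farthest arrays. Myl9 and Acta1 ran in opposite directions, with an r of −0.67 (exact permutation p = 0.0779, adjusted p = 0.218), a rho of −0.81 (exact p = 0.0218, adjusted p = 0.257) and an r of −0.90 without WT replicate 1 and Abhd15 KO replicate 4. Tek with Tie1, Myh11 with Cnn1 and Pecam1 with Pdgfrb had r values of 0.06, −0.05 and 0.34 (exact permutation p = 0.88, 0.921 and 0.424), with rho values of −0.07, 0.02 and 0.24 (exact p = 0.882, 0.977 and 0.582). The rho was −0.02 for Sox17 with Sox18 (exact p = 0.977) and 0.00 for Acta2 with Acta1 (exact p = 1).

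**Figure D4:**
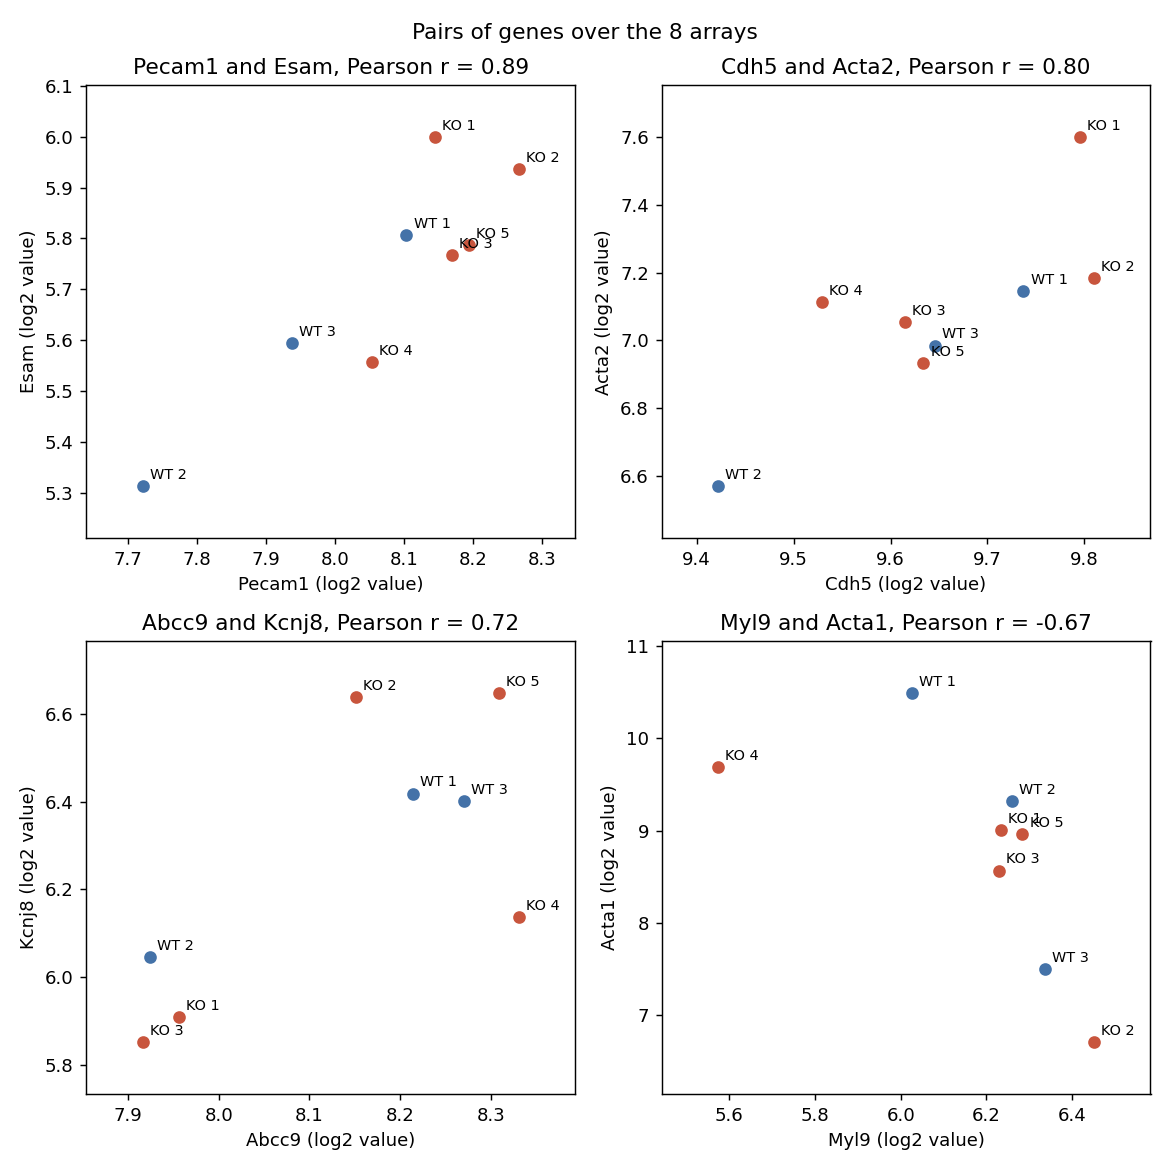
Log2 values of 4 gene pairs in the 8 arrays, with WT in blue and the arrays labelled Abhd15 KO (KO) in red, each point 1 mouse. Pecam1 and Esam (r = 0.89) and Cdh5 and Acta2 (r = 0.80) have WT replicate 2 at the low end, Abcc9 and Kcnj8 (r = 0.72) share 3 low arrays, and Myl9 is lower where Acta1 is higher (r = −0.67).

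Genes around the vascular list gave no call either. Of 28 tested ligands and receptors of vessel growth and tone 16 had a difference above 0 and 0 passed, with a median of 0.02. With limma 1 of the 28 had an unadjusted p below 0.05, against 3.99% of all genes tested. Edn1, the vasoconstrictor endothelin 1, read 4.40, 4.43 and 3.91 in WT and 3.50, 3.30, 3.88, 3.57 and 4.16 in the others, a difference of −0.57 (−1.04 to −0.09, exact permutation p = 0.0536). The next genes of that list by p were Pdgfa (0.20, −0.06 to 0.45) and Pdgfc (−0.27, −0.70 to 0.16), which encode platelet-derived growth factor chains. Of 14 Notch pathway genes 8 had a difference above 0 and 0 passed, with a median of 0.05. With limma 0 of the 14 had an unadjusted p below 0.05. Rbpj, the DNA-binding factor that Notch receptors act through, read 6.37, 6.35 and 6.32 in WT and 6.20, 6.15, 6.20, 6.20 and 6.20 in the others. The Rbpj groups did not overlap, as in 2.77% of all genes, and the difference was −0.16 (−0.36 to 0.05, exact permutation p = 0.0179, the smallest possible). The ligands Dll1 and Jag1 followed with 0.27 (−0.12 to 0.65) and 0.11 (−0.17 to 0.40).

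Among 36 tested transcription factors and further genes of endothelium 18 had a difference above 0 and 0 passed, with a median of 0.00. With limma 2 of the 36 had an unadjusted p below 0.05, against 3.99% of all genes tested. Meox2, a homeobox factor of endothelial cells in fat and muscle, read 5.64, 5.32 and 5.67 in WT and 5.80, 6.01, 6.19, 5.80 and 6.16 in the others (0.45, 0.12 to 0.77, exact permutation p = 0.0357). Tal1, a factor of blood and endothelial development, differed by 0.53 (0.12 to 0.93), with WT arrays at 2.98 to 3.20, near the dim limit. Meox2 and Tal1 were the 2 of 36 genes of this list whose groups did not overlap, where 2.77% of all genes tested had such groups. The water channel Aqp1 differed by 0.31 (−0.10 to 0.71). Among 26 tested further mural genes 12 had a difference above 0 and 0 passed, with a median of −0.03. With limma 1 of the 26 had an unadjusted p below 0.05. Gucy1b1, a subunit of the nitric oxide receptor guanylyl cyclase, read 5.13, 4.75 and 5.32 in WT and 5.24, 5.49, 5.67, 5.48 and 5.57 in the others (0.42, 0.08 to 0.76, exact permutation p = 0.0357). The phosphodiesterase Pde5a, which ends that signal, differed by 0.26 (−0.11 to 0.64) and the pericyte factor Tbx18 by −0.26 (−0.57 to 0.05). Adjusted p was 0.9997 by limma for each gene of these lists.

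The list means of other cell types described here ranged more widely over the arrays than those of the vascular lists. Gene by gene, brown adipocyte genes had a lower median residual SD, 0.14 against 0.23 for endothelial and 0.29 for mural genes. Over all genes tested that median was 0.23, as in the endothelial list. Dio2 of the brown adipocyte list had a residual SD of 1.24. The mean deviation of 20 skeletal muscle genes ranged from −1.02 to 1.58 in WT and from −1.72 to 0.86 in the arrays labelled Abhd15 KO. Of these muscle genes 0 of 20 had a difference above 0, with a median of −0.54, and with limma 0 passed the test and 0 had an unadjusted p below 0.05, against 17 of 19 endothelial genes above 0. The muscle mean was lowest in Abhd15 KO replicate 2, the array highest in both vascular lists. With that mean as a covariate 13 of 19 endothelial and 8 of 12 mural genes had a difference above 0, with a median of 0.07 in each list. The 11 fibroblast genes ranged from −0.14 to 0.39 in WT and −0.29 to 0.27 in the others, and the 14 macrophage genes from −0.22 to 0.47 and −0.53 to 0.30. Of the macrophage genes 3 of 14 had a difference above 0 (median −0.17) and of the fibroblast genes 3 of 11 (median −0.02). With limma 0 of either list passed. An unadjusted p below 0.05 was found for 1 of 14 macrophage genes, Mpeg1, and 0 of 11 fibroblast genes, against 3.99% of all genes tested. Both list means were highest in WT replicate 2, the array lowest in the mural list. The 13 brown adipocyte genes ranged from −0.16 to 0.13 and from −0.44 to 0.21, and 6 of 13 had a difference above 0 (median −0.02). Of the lymphatic list 5 of 6 genes on the array were tested, with means of −0.14 to 0.22 in WT and −0.38 to 0.19 in the others; 2 of 5 had a difference above 0 (median −0.05). Prox1, the factor that defines lymphatic endothelium, was below the dim limit in all 8 arrays. So were the Schwann cell genes Sox10 and Mag and the B cell gene Ms4a1. Other genes of these lists read above it in 8 of 8 arrays: the lymphatic Lyve1, Pdpn and Flt4, the Schwann cell Pmp22 and Mbp, and the T cell Cd3e. The Pdpn groups did not overlap, as in 2.77% of all genes tested, with a difference of −0.23 (−0.48 to 0.03). Pmp22 differed by 0.44 (0.00 to 0.87, unadjusted p = 0.0493 and adjusted p = 0.9997 by limma) and Mbp by −0.04 (−0.44 to 0.36). The part of other cells in the vascular values was not tested beyond the covariate fit.

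**Figure D5:**
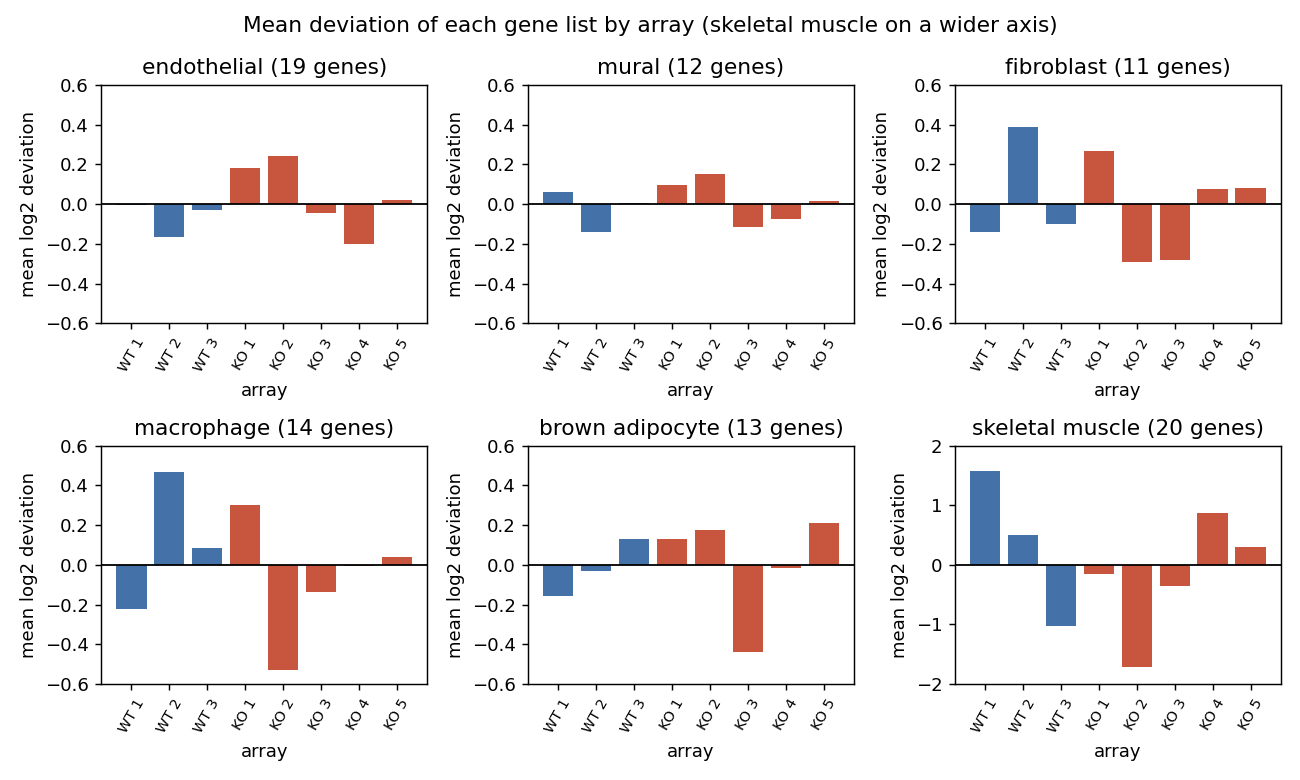
Mean log2 deviation of each gene list from its genes' own averages, by array, with WT in blue and the arrays labelled Abhd15 KO (KO) in red; the skeletal muscle axis is wider than the others. The endothelial bars lie between −0.20 and 0.24 and the mural bars between −0.14 and 0.15, while the skeletal muscle bars reach from −1.72 to 1.58.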

How the data were processed

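Brown fat RNA from each mouse was measured on its own Affymetrix array (Mouse Gene 2.0 ST, 1 colour). The deposited values are log2 values per probe set, made with RMA and oligo per the submitters' processing notes; Expression Console is named as well in the study's design text. Versions, build and probe positions: not given in the sources used here. RMA equalises the arrays' distributions, so a change common to most genes is hidden. Of 41345 probe sets 23521 had 1 gene symbol, 1814 several (not used) and 16010 none; 23328 matched the RefSeq table of GRCm38.p6 by Entrez identifier, with 0 symbols changed.

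Genes above the dim limit in at least 3 arrays (13223) were fitted with limma 3.58.1 in R 4.3.3 (lmFit, eBayes, 1 group term), with Benjamini-Hochberg adjustment over all of them and a threshold of 0.05. Intervals are 95% and unadjusted. Single genes were also compared by exact permutation over the 56 splits (two-sided). The fit was tested on simulated data. Arrays give no read depth; their number limits the precision. The members and gene lists were chosen with earlier results of these data known. Genes printed from the further lists are up to 3 of lowest p; all members are printed. Alternatives were a replicate block, other filters, normalization, centring, trend and robust fitting, array weights, other probe sets, a muscle covariate, and arrays left out.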

Additional observations from a re-analysis of the deposited data

Results flagged for a closer look

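In the 5 arrays labelled Abhd15 KO, 2 of 33 values examined (31 genes and both list means) had 1 array far from the others by Dixon's criterion, which chance meets in about 1 of 20 groups. Notch4 read 4.86 in Abhd15 KO replicate 3 against 5.38 to 5.57 in the other 4. Myl9 read 5.57 in Abhd15 KO replicate 4 against 6.23 to 6.45 in the other 4.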

How the results depend on the processing

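Under each of 18 alternatives 0 of the 31 genes and 0 of all genes passed with limma (528 genes had an unadjusted p below 0.05 with all arrays and 422 with the replicate block). The number of higher endothelial genes, 17 of 19 with all arrays, was 11 without the pair WT replicate 2 and Abhd15 KO replicate 1 and ranged from 11 to 18 when each array was left out in turn, with a median difference of 0.04 to 0.15. For the mural genes these ranges were 6 to 9 of 12 and 0.01 to 0.09, and without that pair 5 of 12 were higher, with a median of −0.03. With the replicate block, in which Abhd15 KO replicates 4 and 5 have no partner and add nothing to the difference, 18 endothelial and 9 mural genes were higher, with medians of 0.22 and 0.10. Same-numbered arrays did not deviate together (r over all genes tested of −0.258, −0.098 and 0.019), and no WT array correlated best with its own number, so the numbers were not taken to pair the mice. Of 559 single-gene values under these settings and second probe sets 0 moved by more than the larger of the gene's group SDs. Some moved by more than the smaller one. Cspg4, whose WT SD was 0.10, went from −0.08 to 0.28 with the replicate block. Egfl7, whose WT SD was 0.03, went from 0.21 to 0.10 without Abhd15 KO replicate 2. Of the 559 values 53 changed sign, in 17 genes, none of which passed the test. Among the 559 the lowest unadjusted p by limma was below 0.05 for Pecam1 (0.0273), Tie1 (0.04705), Rgs5 (0.04218) and Mcam (0.02436). The lowest adjusted p of the 559 was 0.929. Genes less than 2 log2 above the dim limit on average (Plvap, Tagln, Cnn1) are the most limited by signal over background.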

Other observations

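Probe sets that the annotation assigns to several genes were not used above. The one shared by Egfl7 and Mir126a, the microRNA that lies within Egfl7, read 2.00, 1.85 and 3.03 in WT and, in those labelled Abhd15 KO, 2.95, 3.37, 2.45, 2.23 and 2.54, near or below the dim limit of 2.88. The one shared by Ramp2 and its neighbour Vps25 read 8.20, 8.25 and 8.14 in WT and 8.32, 8.03, 8.30, 8.25 and 8.28 in the others, so it varied less than the probe set of Ramp2 alone. The other Rgs5 probe set read 7.18, 7.23 and 7.46 in WT and 7.58, 7.67, 7.50, 7.60 and 7.71 in the others, without overlap between the groups. Of all genes tested, each by its brightest probe set, 2.77% had groups that did not overlap. The brighter Rgs5 probe set overlapped between the groups.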
